A study of Mus musculus with 11 samples.

Results

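The experiment described here set induced pluripotent stem cells made from mouse tail tip fibroblasts (TiPSC) against the fibroblasts they came from (TTF), across all genes of an Affymetrix mouse whole-genome expression array. It took 4 of the 11 arrays of the series, 3 of TiPSC and 1 of TTF, and 18193 genes, each read by its brightest probe set, judged by the mean of all 11 arrays. TiPSC were undifferentiated stem cells on a mixed C57/Bl and BlackSwiss background, grown with LIF on irradiated mouse embryonic fibroblast (MEF) feeders that were depleted by differential plating. TTF came from pups at postnatal day 1 of the same background. Genetically matched embryonic stem cells (ESC, 3 arrays, same feeders and same removal step), induced cells from ventricular myocytes (ViPSC, 3 arrays) and the myocytes themselves (VM, 1 array) served only where named. The labels do not say how the cells were reprogrammed, whether the 3 TiPSC arrays were separate lines or cultures, or how many pups gave the TTF RNA.

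TTF had a single array, so no test was made between TiPSC and TTF and differences are given by size. Values are log2 expression values made by robust multi-array averaging (RMA). A gene was called lower or higher in TiPSC when each of the 3 arrays lay at least 2 log2 units, a 4-fold difference, below or above the TTF array. It was called within 0.5 when each of the 3 arrays lay within 0.5 log2 units of TTF. RMA gives no detection calls and compresses differences between dim probe sets. Values under 6 are called the bottom of the scale here, and genes close in level there may be silent in both cells.

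Fibroblasts are connective tissue cells that lay down and remodel the extracellular matrix. They spread on it through integrins tied to contractile actin bundles, and they keep a memory of their position in the body in their Hox genes. Reprogramming to pluripotency in mouse fibroblasts is known to begin with loss of this mesenchymal program and gain of epithelial junctions, and to end with a self-sustaining network around Oct4 (Pou5f1), Sox2 and Nanog.

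The 11 array medians were close, between 4.67 and 4.78. Between any pair of TiPSC arrays only 4 to 8 genes differed by 2 log2 units or more and 90.9% to 97.5% lay within 0.5, with a median SD over the 3 arrays of 0.12. TiPSC 1 stood apart in Y-linked transcripts. Eif2s3y, a Y-linked translation factor, was at 5.11 in TiPSC 1 and at 8.64 and 8.80 in TiPSC 2 and 3, against 8.39 in TTF. Uty, a Y-linked demethylase relative, was at 4.25, 5.54 and 5.62, against 5.81. Xist, which coats and silences an X chromosome in female cells, was at 6.33, 6.07 and 5.88 in TiPSC, against 11.06 in TTF. The TTF array thus held both Xist and a Y-linked transcript, and the sex of the cells and reprogramming cannot be told apart for these genes. In ESC the means were 3.95 for Eif2s3y, 4.11 for Uty and 7.24 for Xist. The ESC arrays thus lacked the Y-linked signal of TiPSC 2 and 3. In the comparison of TiPSC with ESC below, sex and origin of the cells cannot be told apart. Without TiPSC 1 the counts below became 1131 genes lower, 842 higher and 8377 within 0.5.

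The fibroblast label of the TTF array was checked on 20 measured identity genes, of which 14 were at 8 or more in TTF. Their summed level (log2 of the sum of the unlogged values) was 13.29, 13.05 and 12.72 in TiPSC, against 16.89 in TTF. Genes that define other cell types were in part low and in part raised in TTF. Of the endothelial list none was above 6.96 in TTF (Egfl7), with Cdh5 at 3.72, and of the Schwann and neural crest list none above 6.62 (Tubb3), with Sox10 at 5.17. Keratinocyte genes were at 4.64 for Krt5, 3.17 for Krt14 and 7.06 for Krt10, and muscle genes at 3.43 for Myod1 and 8.16 for the skeletal actin Acta1. Of the blood and macrophage list the common leukocyte gene Ptprc was at 4.24, but the macrophage genes Lyz2 (9.56), Csf1r (7.64), Tyrobp (6.73) and Fcer1g (6.25) stood above their TiPSC means, by a TiPSC minus TTF difference of −2.31, −2.49, −1.85 and −1.65. Other members went the opposite way, Laptm5 at 5.89 in TTF (2.92, called higher in TiPSC) and Cd68 at 5.94 (1.60). Another 4 of the 12 lay within 0.5, so the list gave no single direction. Of the fat list Adipoq was at 2.92, but the fatty acid carrier Fabp4 was at 9.09 (−4.83) and the lipase Lpl at 8.53 (−1.69). Of the cartilage and tendon list the tendon glycoprotein Tnmd was at 10.88, the tendon regulator Mkx at 8.01 and the cartilage regulator Sox9 at 7.27, whereas Col2a1 was at 4.04 and Scx at 5.17. The summed levels of the last 3 lists were 10.02, 10.13 and 9.64 in TiPSC against 10.43 in TTF for blood and macrophage, 8.35, 8.40 and 8.36 against 11.29 for cartilage and tendon, and 7.68, 7.75 and 7.70 against 9.94 for fat. In that order 0 of 12, 2 of 12 and 1 of 6 genes were lower in TiPSC by the rule above. For endothelium, keratinocyte, skeletal muscle and Schwann cell markers the summed level was 9.30 to 9.46, 9.69 to 10.56, 11.45 to 11.88 and 9.92 to 10.47 in TiPSC, against 8.22, 8.37, 9.12 and 8.46 in TTF, and 0 genes of any of them were lower in TiPSC. Such sums rest mostly on the brightest genes of a list. These were Mylpf for skeletal muscle (mean 11.30 in TiPSC, 5.52 in TTF), Sfn for keratinocytes (9.50 and 4.95) and, in TTF, Tnmd for cartilage and tendon. RMA gives no zeros, so no marker was at 0. The part that cells other than fibroblasts, or feeder cells left among the TiPSC, had in the values below was not tested, and fewer cells of a type cannot be told apart from less RNA per cell.

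Of the 18193 genes, 1093 were lower in TiPSC (6.01%), 820 were higher (4.51%) and 8011 lay within 0.5 (44%). Most of the close genes were at the bottom of the scale, since 5841 of them were under 6 in all 4 arrays. Among the 4216 genes at 8 or more in all 4 arrays, 1267 lay within 0.5 (30.1%). Another 8269 genes met none of these rules. Genes bright in TTF were lower more often, 821 of the 5731 at 8 or more in TTF (14.3%) and 90 of the 382 at 12 or more (23.6%). Counts of lower genes in the lists below are to be read against these shares as well as the 6.01%. Small counts, such as 3 of 24 interferon genes or 1 of 12 G1 genes, are near them. The median difference over all genes was 0.07. The lower genes had a median level of 5.72 in TiPSC, against 9.37 in TTF. Of these, 561 (51.3%) were under 6 in all 3 TiPSC arrays, while 122 were still at 8 or more. The higher genes had a median level of 9.14 in TiPSC and 5.29 in TTF, with 487 of them under 6 in TTF.

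**Figure D1:**
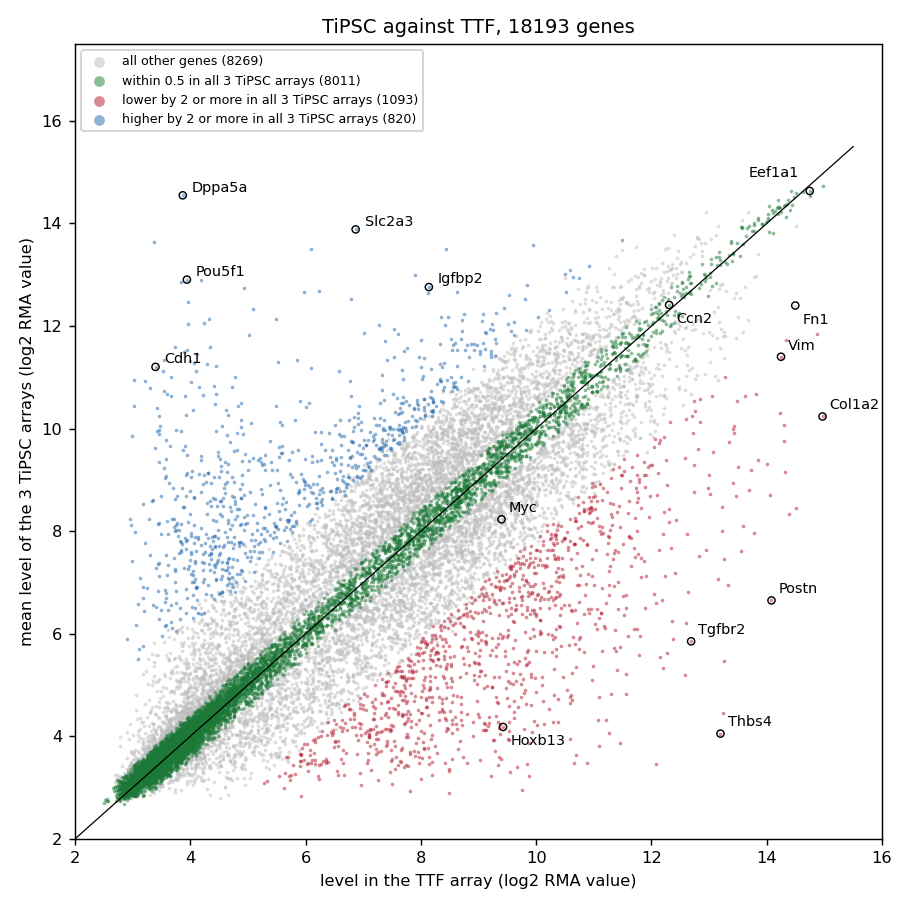
Each of the 18193 genes by its mean level in the 3 TiPSC arrays (vertical) and its level in the TTF array (horizontal), both as log2 RMA values, coloured by size of difference. Eef1a1 and Ccn2 lie near the diagonal and Thbs4 and Postn far below it, with Fn1 and Vim between them.

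The differences of the lower genes reached 4 log2 units or more in 268 genes, 6 or more in 33 and 8 or more in 3.

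Those 3 genes all encode secreted proteins. Thbs4, a thrombospondin of tendon and muscle matrix, was at 4.07, 4.11 and 3.97 in the TiPSC arrays, against 13.20 in TTF (difference −9.15). Ptn, the heparin-binding growth factor pleiotrophin, was at 4.47, 4.49 and 4.43, against 13.25 in TTF (−8.79). Dkk2, a Wnt antagonist, was at 3.44, 3.40 and 3.53, against 12.08 (−8.62). In each the TiPSC arrays lay near the bottom of the scale and close to each other. The next largest differences were those of the collagen-binding proteoglycan Dcn (−7.78), the platelet-type chemokine Ppbp (−7.59), the matricellular Postn (−7.43), the tendon gene Tnmd (−7.41), the thrombospondin Thbs2 (−7.38) and the fibrillin Fbn2 (−7.29). After them came Csgalnact1 (−7.20), which starts chondroitin sulfate chains, the cartilage matrix genes Cilp (−7.18) and Aspn (−7.05), and the aggrecan-cleaving protease Adamts5 (−6.90). Snai2 (−6.87), a repressor of epithelial genes, and Tgfbr2 (−6.84), a receptor of TGF-beta, were the only transcription factor and the only signalling receptor among the 15 largest.

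The largest differences upward were those of Dppa5a (10.68), Bex1 (10.27), L1td1 (9.02), Pou5f1 (8.96), Tdgf1 (8.72) and Nanog (8.52). Bex1, an X-linked adaptor protein gene, was at 13.66, 13.51 and 13.71 in TiPSC, against 3.36 in TTF. Mycn (8.09), Mageb16 (7.94), the thyrotropin-releasing hormone gene Trh (7.86), the adhesion genes Epcam (7.82) and Cdh1 (7.81), Sox2 (7.82), Sall4 (7.81), Trim71 (7.78) and Nr0b1 (7.72) completed the 15 largest. None of the 15 was above 5 in TTF.

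For a view of the start sites behind these behaviours, a promoter of 2 genes each is printed for the lower, the higher and the unchanged class, from the mouse RefSeq annotation of build GRCm38.p6. Each window runs from 250 bases before to 50 bases after a gene's start, read 5′ to 3′ on the gene's strand, the first window listed where a gene has several. Capitals mark each CpG dinucleotide (CG, which reads the same on both strands).
Postn, chr3:54359017-54359316, plus strand: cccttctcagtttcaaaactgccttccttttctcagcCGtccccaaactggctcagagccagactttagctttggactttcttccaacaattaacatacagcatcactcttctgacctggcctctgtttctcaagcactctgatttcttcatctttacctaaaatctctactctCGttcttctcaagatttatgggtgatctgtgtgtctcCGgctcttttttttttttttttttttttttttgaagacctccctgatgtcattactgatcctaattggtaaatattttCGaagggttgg
Col1a2, chr6:4505368-4505667, plus strand: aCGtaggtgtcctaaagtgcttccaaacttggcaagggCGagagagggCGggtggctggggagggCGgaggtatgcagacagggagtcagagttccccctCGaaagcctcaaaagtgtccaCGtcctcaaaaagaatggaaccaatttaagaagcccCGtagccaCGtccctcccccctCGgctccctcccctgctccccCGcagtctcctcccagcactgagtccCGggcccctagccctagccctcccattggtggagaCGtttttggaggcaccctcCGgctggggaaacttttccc
Pou5f1, chr17:35505782-35506081, plus strand: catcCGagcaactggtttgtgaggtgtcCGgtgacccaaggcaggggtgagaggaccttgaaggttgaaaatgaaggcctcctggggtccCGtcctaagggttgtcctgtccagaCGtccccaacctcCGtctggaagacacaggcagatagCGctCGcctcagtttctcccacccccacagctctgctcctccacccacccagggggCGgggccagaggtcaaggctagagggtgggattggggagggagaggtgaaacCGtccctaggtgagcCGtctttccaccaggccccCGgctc
Nanog, chr6:122707239-122707538, plus strand: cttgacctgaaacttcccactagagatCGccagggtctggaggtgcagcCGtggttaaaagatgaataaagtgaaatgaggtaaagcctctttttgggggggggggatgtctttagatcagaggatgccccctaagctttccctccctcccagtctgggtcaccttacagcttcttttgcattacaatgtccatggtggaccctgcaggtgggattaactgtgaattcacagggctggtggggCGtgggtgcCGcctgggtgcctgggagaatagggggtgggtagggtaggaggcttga
Rplp0, chr5:115559217-115559516, plus strand: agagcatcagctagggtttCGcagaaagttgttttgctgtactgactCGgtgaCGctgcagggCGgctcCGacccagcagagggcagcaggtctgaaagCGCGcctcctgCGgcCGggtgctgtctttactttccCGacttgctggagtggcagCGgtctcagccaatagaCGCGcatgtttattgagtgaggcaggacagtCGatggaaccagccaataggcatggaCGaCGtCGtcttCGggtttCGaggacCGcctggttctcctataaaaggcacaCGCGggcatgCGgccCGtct
Eef1a1, chr9:78481675-78481974, minus strand: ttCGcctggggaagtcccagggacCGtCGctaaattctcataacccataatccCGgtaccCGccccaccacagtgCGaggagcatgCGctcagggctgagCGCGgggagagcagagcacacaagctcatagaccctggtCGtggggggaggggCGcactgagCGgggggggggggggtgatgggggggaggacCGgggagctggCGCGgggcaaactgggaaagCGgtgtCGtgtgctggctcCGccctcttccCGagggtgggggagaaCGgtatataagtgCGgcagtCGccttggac

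The window of Postn held 4 CpGs and that of Nanog 4, against 13 in Col1a2, 11 in Pou5f1, 24 in Rplp0 and 22 in Eef1a1. Over the 27025 windows of the table, which include genes not on the array, the median was 7, and 94.2% held at least 1 CG. The expressed genes within 0.5, which had a window for 1056 of 1267 genes (83.3%), had a median of 23 CpGs and an observed-to-expected CpG ratio over 0.6 in 85.2% of windows. All genes on the array had a median of 17 CpGs and that ratio in 57.0% of windows, but with a window for only 79.4% of them, so the values are set side by side with no comparison. The 40 of 45 ribosomal protein genes with a window had a median of 22.5 CpGs. For the lower and the higher genes only 76.9% and 77.9% had a window, too few for a fair comparison, so a check of their promoters is void and none is given.

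Many genes of the fibroblast's matrix were lower. Of 11 fibrillar collagens, the rope-forming proteins of connective tissue, 7 were lower in TiPSC, 0 higher and 1 within 0.5, with a median difference of −4.73. Col1a1, a chain of type I collagen, was at 7.26, 6.81 and 6.77 in TiPSC, against 13.33 in TTF (−6.38). Its partner chain Col1a2 was at 10.63, 10.23 and 9.84, against 14.97 (−4.73), and so remained well above background. Col3a1 (−6.04), Col5a1 (−5.36), Col5a2 (−6.05), Col5a3 (−4.65) and Col11a1 (−4.88) were lower as well. Of the 26 other collagens 10 were lower and 10 within 0.5 (median −0.37). Those lower included the 3 chains of type VI collagen, a beaded filament around cells, at differences of −6.09 for Col6a1, −5.80 for Col6a2 and −5.49 for Col6a3. The basement membrane chains Col4a1 (−4.12) and Col4a2 (−4.33) were also lower. The exception was Col18a1, a basement membrane collagen, at 10.39, 10.58 and 10.23 in TiPSC and 8.84 in TTF.

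Genes that fold, hydroxylate and cross-link collagen were lower with it. Of 20 such genes 14 were lower, 0 higher and 0 within 0.5 (median −3.18). Lox, which cross-links collagen and elastin, was at 9.35, 9.16 and 8.93 in TiPSC, against 14.32 in TTF (−5.17). Loxl1 (−5.53), the prolyl 3-hydroxylase gene P3h3 (−4.94) and the collagen chaperone Serpinh1 (−4.49) were lower by similar amounts. Some genes with smaller differences serve secretion more generally. P4hb, the protein disulfide isomerase, was at 11.83, 11.75 and 12.06 against 13.59 (−1.71), and the cyclophilin Ppib at 11.78, 11.81 and 11.81 against 13.23 (−1.43).

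Among 24 proteoglycans 14 were lower, 1 was higher and 2 lay within 0.5 (median −2.67). The small leucine-rich ones, which bind collagen fibrils, went lowest, with Dcn at 5.65, 5.51 and 5.27 in TiPSC against 13.26 in TTF, Lum at −6.46, Fmod at −5.94 and Ogn at −5.25. Gpc3, a glypican of embryonic tissues, was the only one higher, at 9.60, 9.50 and 9.05 against 5.18 (4.21). Of 31 elastic fibre and matricellular genes 21 were lower, 0 higher and 3 within 0.5 (median −3.98). Postn, an adhesion protein of remodelling matrix, was at 7.10, 6.64 and 6.21, against 14.08. Sparc, a collagen-binding glycoprotein, was at 10.38, 10.32 and 10.22, against 14.24 (−3.93). Not every matricellular gene was low. Ccn2, a target gene of TGF-beta and of the YAP coactivator, was at 12.38, 12.48 and 12.37 in TiPSC and 12.31 in TTF. Fbln1, a basement membrane fibulin, was at 9.11, 9.28 and 8.60, against 9.08. Fn1, fibronectin, was still at 12.48, 12.52 and 12.20, against 14.49 (−2.10).

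**Figure D2:**
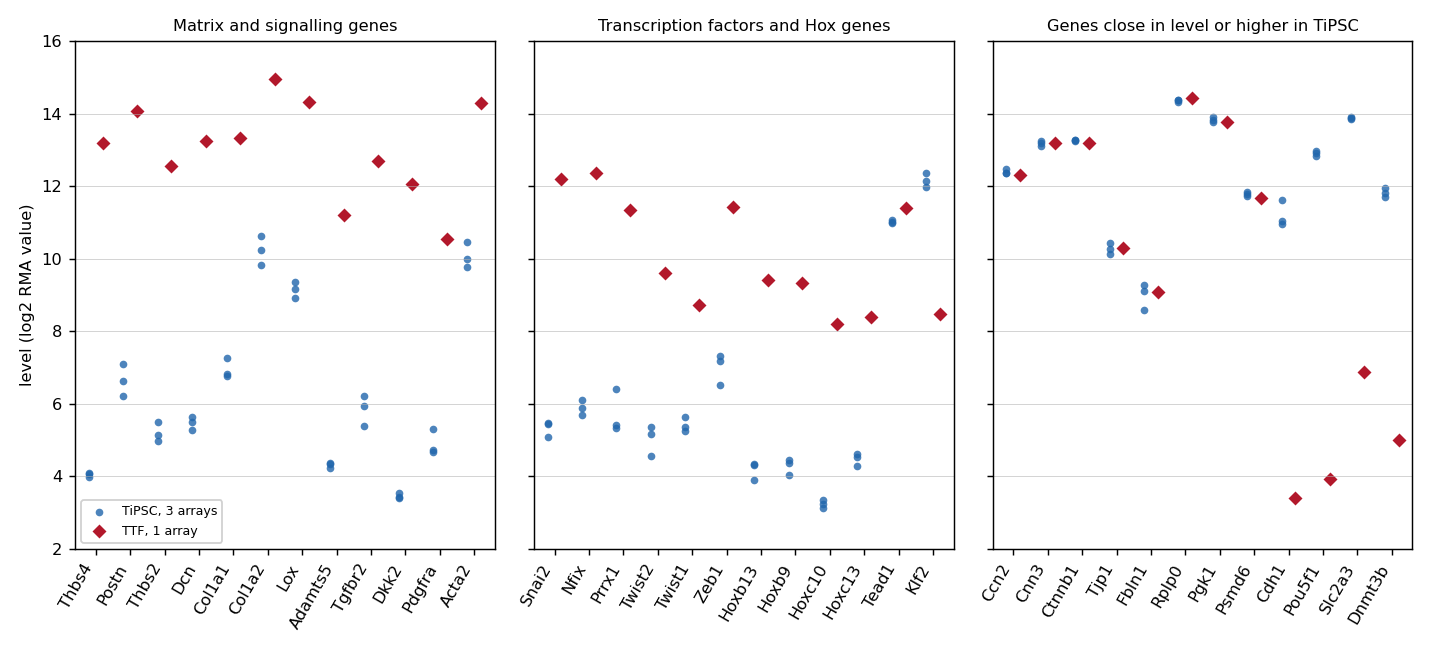
Levels of 36 named genes as log2 RMA values, with the 3 TiPSC arrays (circles) left of the TTF array (diamond) for each gene. In the panel on matrix and signalling genes every TiPSC array lies well below TTF, while Ccn2, Cnn3, Ctnnb1 and Rplp0 in the last panel coincide.

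The laminins and nidogens of basement membranes went in both directions, with 4 of 13 lower, 4 higher and 1 within 0.5. Their median was 0.13, but −0.67 with all probe sets of a gene averaged and −1.11 among members at 7 or more in at least 1 array. Lama4, a laminin chain of mesenchyme and vessels, was at 5.32, 5.25 and 5.37 in TiPSC, against 10.30 in TTF (−4.99), and the muscle-type chain Lama2 had a difference of −3.20. Lama1, the chain of the early embryo's basement membrane, was at 8.53, 8.53 and 7.89, against 4.98 (3.34). Lama5 (2.91) and Lama3 (2.48), chains of epithelia, and Agrn (2.37) were higher too. Lamc1, the gamma chain shared by most laminins, was at 8.85, 8.80 and 8.61, against 8.62 in TTF.

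Matrix proteases and their inhibitors were lower in 19 of 28 genes, higher in 0 and within 0.5 in 1 (median −3.72). The collagenase Mmp13 was at 6.06, 5.86 and 5.87 in TiPSC, against 10.76 in TTF (−4.83). The membrane protease Mmp14, which activates Mmp2, was at 8.05, 7.70 and 8.11, against 12.62 (−4.67), and Mmp2 itself had a difference of −4.05. The cysteine protease Ctsk (−5.91) and the anti-angiogenic serpin Serpinf1 (−5.94) were lower by more. Mmp3, stromelysin, differed most of the list among the TiPSC arrays, at 8.70, 8.09 and 7.23, against 11.74. The inhibitor Timp1 remained at 10.66, 10.31 and 10.05, against 12.75 (−2.41).

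Of 24 integrin and focal adhesion genes 6 were lower, 1 was higher and 1 lay within 0.5 (median −1.58). Itgav, the vitronectin receptor chain, was at 9.32, 9.15 and 9.40 in TiPSC, against 11.97 in TTF (−2.67), and its partner Itgb3 had a difference of −3.12. Itga6, a laminin receptor chain of stem cells and epithelia, was at 10.11, 10.27 and 10.25, against 6.90 (3.31). Among 25 actin, smooth muscle and stress fibre genes 9 were lower, 0 higher and 4 within 0.5 (median −1.80). Actg2, the enteric smooth muscle actin, was at 5.20, 4.45 and 4.64, against 10.59 (−5.83). Acta2, the smooth muscle actin of myofibroblasts, remained between 9.77 and 10.47 in TiPSC, against 14.30 in TTF (−4.22). Vim, the mesenchymal intermediate filament, remained at 11.81, 11.47 and 10.93, against 14.25 (−2.85). Cnn3, the calponin of non-muscle cells, was at 13.19, 13.25 and 13.10, against 13.19, and Srf, the regulator of many genes in this list, was at 8.39, 8.50 and 8.54, against 7.14.

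Of 33 genes of mesenchymal adhesion 21 were lower, 1 was higher and 4 lay within 0.5 (median −2.94). Cdh11, the mesenchymal cadherin, was at 5.95, 5.36 and 5.35 in TiPSC, against 12.15 in TTF (−6.60), and N-cadherin, Cdh2, at 6.82, 6.24 and 6.34, against 10.67 (−4.20). The caveola genes Cav1 (−3.90) and Cavin3 (−5.65) and the annexins Anxa1 (−4.25), Anxa2 (−2.94) and Anxa5 (−3.52) were lower as well. Icam1, a leukocyte adhesion receptor, was higher, at 8.25, 8.23 and 8.23, against 4.77 (3.47). The tetraspanin Cd9, with a difference of 0.21, and P-cadherin, Cdh3, at 7.62, 7.60 and 7.72 against 7.76, differed little.

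Transcription factors of mesenchyme followed. Of 49 measured, 25 were lower, 1 was higher and 14 lay within 0.5 (median −2.07). Snai2 was at 5.45, 5.46 and 5.08 in TiPSC, against 12.20 in TTF. Nfix, a nuclear factor I gene, was at 6.12, 5.88 and 5.70, against 12.37 (−6.47), and its relatives Nfic (−3.01), Nfib (−2.81) and Nfia (−2.56) were lower too. Prrx1, a homeobox factor of limb and skin mesenchyme, was at 6.40, 5.43 and 5.32, against 11.34 (−5.63), with TiPSC 1 the highest. Both Twist genes were lower, Twist1 at 5.35, 5.24 and 5.63 against 8.74 (−3.33) and Twist2 at 5.35, 4.57 and 5.16 against 9.60 (−4.57). The zinc finger repressors Zeb1 (−4.41) and Zeb2 (−4.15) and the AP-1 member Fosl2 (−4.51) were lower. Tead1, the DNA-binding partner of YAP, lay within 0.5, at 10.98, 11.08 and 11.01, against 11.40. Klf2, which also belongs to the pluripotency network, was the only member higher, at 11.99, 12.14 and 12.37, against 8.47 (3.70). The other members within 0.5 read no more than 6.35 (Msx2) in any of the 4 arrays.

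Hox genes encode position along the body axis. Of 33 measured, 8 were lower, 0 higher and 16 within 0.5 (median −0.34). Hoxb13, the last gene of its cluster and a marker of tail and posterior body, was at 3.89, 4.34 and 4.32 in TiPSC, against 9.43 in TTF (−5.24). Hoxb9 was at 4.38, 4.44 and 4.04, against 9.34 (−5.05), Hoxc10 at 3.23, 3.36 and 3.12, against 8.20 (−4.96), and Hoxc13 at 4.29, 4.53 and 4.62, against 8.40 (−3.92). All 4 lay near the bottom of the scale in every TiPSC array. Hoxa10, Hoxc8, Hoxb2 and Hoxb6 were lower from TTF levels of 5.27 to 7.06. No Hoxd gene was above 6 in TTF.

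Signalling genes went in both directions. In the TGF-beta and BMP list 13 of 35 genes were lower, 2 higher and 5 within 0.5 (median −1.30). Tgfbr2 was at 6.20, 5.40 and 5.95 in TiPSC, against 12.69 in TTF, whereas its partner receptor Tgfbr1 was at 9.12, 9.05 and 9.12, against 8.72. Tgfb3, a ligand, was at 5.20, 4.57 and 4.67, against 10.30 (−5.49). The co-receptor Tgfbr3 (−5.28), the target gene Tgfbi (−6.20) and the BMP antagonist Grem1 (−4.51) were lower too. Of the Smad proteins that carry the signal, Smad2 was at 8.78, 8.88 and 8.81, against 8.79, and Smad4 at 10.69, 10.61 and 10.82, against 11.06, but Smad3 was lower at 7.68, 7.56 and 7.68, against 9.99 (−2.35). Higher were Acvr2b, an activin and Nodal receptor, at 8.59, 8.50 and 8.77, against 4.42 (4.20), and Id2, a BMP target, at 10.27, 10.28 and 9.74, against 6.92 (3.18).

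In the Wnt list 10 of 30 genes were lower, 1 was higher and 7 lay within 0.5. The secreted antagonists Dkk2 and Dkk3 (−5.31), the receptor Fzd1 (−5.39), Wls, which carries Wnt proteins to the surface (−4.44), the agonist Rspo3 (−4.37) and the ligand Wnt5a (−4.28) were lower. Fzd5, a receptor, was at 9.96, 10.19 and 9.56 in TiPSC, against 6.41 in TTF (3.49). Ctnnb1, the transducer beta-catenin, was at 13.26, 13.29 and 13.29, against 13.19. Growth factors and receptors of mesenchyme were lower in 16 of 33 genes, higher in 2 and within 0.5 in 2 (median −1.74). Pdgfra, the receptor that marks fibroblasts, was at 5.30, 4.72 and 4.67, against 10.53 (−5.64), and Pdgfrb at 5.17, 5.01 and 5.08, against 8.54 (−3.46). Their ligands Pdgfd (−5.85) and Pdgfc (−3.03) were lower, Pdgfc with TiPSC 3 at 7.50 below TiPSC 1 and 2 at 9.08 and 9.18. The keratinocyte growth factor Fgf7 (−5.67) and the Axl receptor (−5.08) with its ligand Gas6 (−5.12) were lower. Higher were Kit, the stem cell factor receptor, at 9.42, 9.27 and 8.59, against 3.92 (5.17), and Igfbp2, an IGF-binding protein, at 12.83, 13.02 and 12.42, against 8.14 (4.62). Kitl, the ligand of Kit, had the opposite difference (−3.44).

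Cytokine and chemokine genes were lower in 11 of 27, higher in 0 and within 0.5 in 8 (median −0.97). Cxcl5, which draws neutrophils, was at 3.46, 3.47 and 3.46 in TiPSC, against 9.84 in TTF (−6.37). The receptors Osmr (−6.33), for oncostatin M, and Il1r1 (−5.87), for interleukin-1, and the monocyte chemokines Ccl7 (−5.70) and Ccl2 (−3.46) were lower. Il6st, the receptor chain shared with LIF, remained at 9.67 or less in TiPSC, against 12.58 in TTF (−3.15). Of 24 interferon and MHC class I genes 3 were lower, 2 higher and 5 within 0.5 (median −0.42). B2m, the light chain of MHC class I, was at 10.16, 9.87 and 9.72, against 12.72 (−2.80). Ifitm1, a membrane protein of stem and germ cells, was at 12.80, 12.81 and 12.41, against 6.24 (6.44), while Ifitm2 was at 11.58, 11.83 and 11.37, against 12.04. Among 17 retinoid and steroid genes 4 were lower, 0 higher and 5 within 0.5 (median −1.36), led by the retinoic acid binding protein Crabp1 at 8.37, 7.94 and 7.61, against 13.78 (−5.81).

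Several cell cycle inhibitors were low in TiPSC. Of 23 such genes and p53 targets 5 were lower, 1 was higher and 2 lay within 0.5 (median −0.69). Cdkn2a, which encodes p16 and p19 and limits fibroblast growth in culture, was at 7.50, 7.38 and 7.61 in TiPSC, against 11.71 in TTF (−4.22). Cdkn2b was at 5.73, 5.32 and 5.90, against 10.13 (−4.48), and Cdkn2c at 5.81, 5.97 and 5.92, against 10.75 (−4.84). The growth arrest gene Gas1 (−5.22) and the Rb relative Rbl2 (−3.06) were lower as well. Cdkn1a, the p21 target of p53, was at 10.25, 10.20 and 10.40, against 12.20 (−1.91), and Mdm2 at 9.66, 9.82 and 9.67, against 9.30. Pmaip1, the pro-apoptotic p53 target Noxa, was higher, at 10.18, 9.94 and 10.80, against 6.90 (3.41). In the lysosome and secretory list 9 of 31 were lower, 0 higher and 2 within 0.5 (median −1.55). Kdelr3 (−4.02), which returns proteins to the endoplasmic reticulum, and Creb3l1 (−3.63) and Creb3l2 (−4.23), regulators of matrix secretion, were lower, while the translocon gene Sec61b was at 12.07, 12.07 and 11.89, against 12.50.

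Set beside these losses, 35 of 36 core pluripotency genes were higher, 0 lower and 0 within 0.5 (median 6.77). The exception was Myc, a growth regulator that fibroblasts also use, at 8.31, 8.24 and 8.14 in TiPSC, against 9.40 in TTF (−1.17). Its relative Mycn was at 12.17, 12.21 and 11.74, against 3.95. Klf4 already stood at 9.20 in TTF, against 12.22, 12.09 and 11.53 in TiPSC (2.75). Epithelial junction genes were higher in 23 of 28, lower in 0 and within 0.5 in 1 (median 3.94). Cdh1, E-cadherin, was at 11.05, 10.95 and 11.61, against 3.40. The keratins Krt8, at 11.23, 10.22 and 12.19 against 4.45, and Krt18, at 10.56, 9.84 and 11.56 against 4.22, were high in all 3 TiPSC arrays but differed among them by more than 1 unit. Tjp1, a scaffold of tight junctions that fibroblasts share, was at 10.28, 10.12 and 10.45, against 10.31.

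DNA methylation and polycomb genes were higher in 13 of 28, lower in 1 and within 0.5 in 1 (median 1.27). Dnmt3b, a methyltransferase of early embryos, was at 11.96, 11.83 and 11.70 in TiPSC, against 5.01 in TTF (6.82), whereas the maintenance enzyme Dnmt1 was at 11.16, 11.23 and 11.16, against 9.77 (1.41). Bmi1, a polycomb protein that represses Cdkn2a in fibroblasts, was the one lower, at 5.72, 5.83 and 6.22, against 9.35 (−3.42). Cbx7, another polycomb protein, was at 9.27, 9.44 and 9.22, against 4.65 (4.66). Among 32 SWI/SNF and NuRD remodeller genes 4 were lower, 2 higher and 12 within 0.5 (median 0.31). The helicase subunit Smarca2 was at 3.98, 3.71 and 4.18, against 7.95 (−3.99), while the alternative subunit Smarca4 was at 10.93, 10.82 and 10.83, against 10.60.

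Genes of DNA replication, mitosis and repair stood higher in TiPSC. DNA replication genes were higher in 15 of 32, lower in 0 and within 0.5 in 1 (median 2.13), mitosis genes higher in 12 of 24 with 0 lower (median 2.03) and DNA repair genes higher in 11 of 26 with 0 lower (median 1.78). Mcm5, of the replicative helicase, was at 12.28, 12.24 and 12.54 in TiPSC, against 9.44 in TTF (2.91). Orc1, of the origin recognition complex, had the largest difference of the replication list, at 9.47, 9.50 and 9.31, against 5.20 (4.23). Of 12 G1 cyclin and kinase genes 1 was lower and 1 higher. Ccnd2 was at 8.96, 8.23 and 8.21, against 13.23 (−4.76), Ccnd1 at 10.45, 10.08 and 10.30, against 10.81, and Ccne1 at 10.89, 10.87 and 10.96, against 8.60 (2.31).

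**Figure D3:**
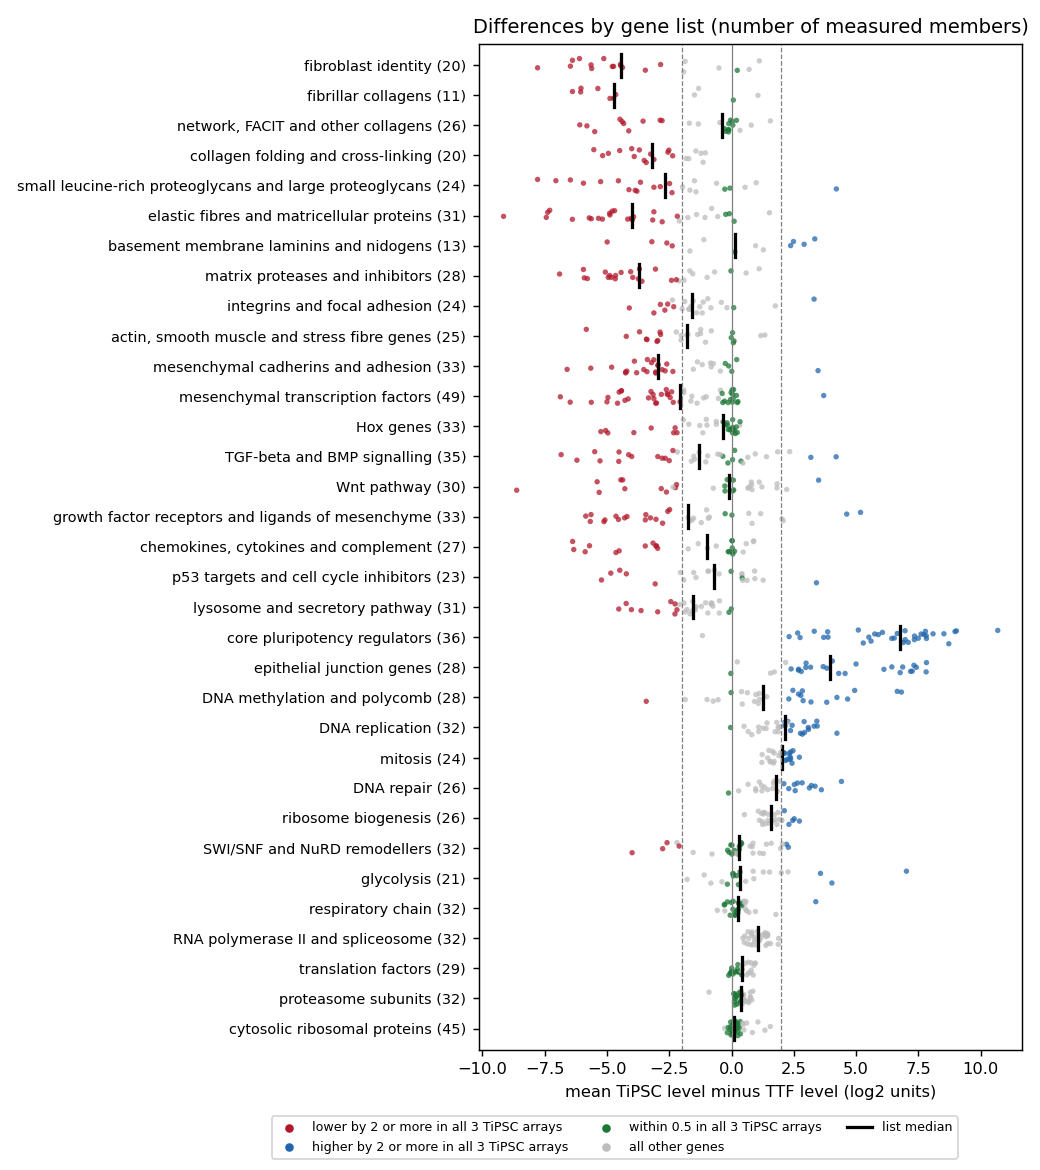
Mean TiPSC level minus TTF level, in log2 units, for every measured gene of 33 lists (numbers of genes in brackets), with one point per gene and a bar at each list median. Most matrix lists have their median left of −2, other collagens and laminins excepted, with pluripotency and junction lists right of 2 and ribosomal proteins clustered near 0.

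Lists of protein synthesis, protein breakdown and energy supply held many genes close in level between induced and source cells, to be read against the shares within 0.5 of 44% of all genes and 30.1% of genes at 8 or more. Glycolysis, at 7 of 21, was near that second share, and the one-carbon and amino acid list, at 8 of 18, was near the first. Of 45 cytosolic ribosomal protein genes 36 lay within 0.5 and none was called lower or higher (median 0.11, or −0.02 with arrays centred on these genes, which moved the median of all genes by −0.13). Rplp0, a stalk protein of the large subunit, was at 14.38, 14.38 and 14.33 in TiPSC, against 14.43 in TTF. Rps16 read only 3.20, 3.27 and 3.20, against 3.18, near the bottom of the scale on its only probe set, so its closeness carries no information. Translation factors lay within 0.5 in 15 of 29 (median 0.42), with 0 lower and 0 higher. Eef1a1, which brings aminoacyl-tRNA to the ribosome, was at 14.60, 14.66 and 14.64, against 14.75, and the poly(A)-binding Pabpc1 at 14.18, 14.19 and 14.18, against 14.20. Proteasome genes lay within 0.5 in 16 of 32 (median 0.36), again with 0 lower and 0 higher, and the lowest and highest differences were −0.90 (Psmd8) and 0.86 (Psmb7).

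Respiratory chain genes lay within 0.5 in 19 of 32, with 0 lower and 1 higher (median 0.28). Cox5b, of cytochrome oxidase, was at 13.43, 13.39 and 13.35 in TiPSC, against 13.34 in TTF. Cox7a1, an oxidase isoform of heart and skeletal muscle, was the one higher, at 7.70, 7.63 and 7.81, against 4.33 (3.38). Of 21 glycolysis genes 7 lay within 0.5, 0 were lower and 3 higher (median 0.34). The enzymes Pgk1, at 13.84, 13.92 and 13.77 against 13.78, and Ldha, at 13.42, 13.39 and 13.32 against 13.54, were close. The glucose transporter Slc2a3, at 13.90, 13.90 and 13.85 against 6.87 (7.02), and the lactate dehydrogenase isoform Ldhb, at 12.93, 13.04 and 11.99 against 8.63 (4.03), were higher. In the one-carbon and amino acid list 8 of 18 lay within 0.5 and 5 were higher. The serine synthesis genes Phgdh, at 11.87, 11.83 and 11.86 against 12.15, and Psat1, at 12.18, 12.23 and 11.91 against 11.73, were close. The glycine decarboxylase Gldc, at 10.83, 10.88 and 10.72 against 4.72 (6.09), and the cytosolic serine hydroxymethyltransferase Shmt1, at 10.58, 10.51 and 10.50 against 5.91 (4.62), were higher.

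Not every basic cellular list was close. RNA polymerase II and spliceosome genes had 0 of 32 within 0.5 and 0 past 2 log2 units, with a median of 1.07 and a range of 0.46 to 1.89, all above 0. Ribosome biogenesis genes had 0 of 26 within 0.5, 5 higher and 0 lower (median 1.59). Npm1, a nucleolar chaperone, was at 14.25, 14.22 and 14.22 in TiPSC, against 12.95 in TTF (1.29), and Dkc1, the pseudouridine synthase of the nucleolus, at 12.55, 12.59 and 12.46, against 9.81 (2.72). Of 14 genes often used to normalise expression 6 lay within 0.5, 2 were lower and 1 was higher. Rplp0, Pgk1, Eef1a1, Ywhaz, Rpl13a and Sdha were the close ones. B2m and Gusb (−2.44) were lower, Tfrc, the transferrin receptor, was higher at 12.31, 12.32 and 12.11, against 9.30 (2.95), and Actb differed little (−0.55, or 0.01 with its probe sets averaged).

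The brightest genes within 0.5 were Tmsb10, an actin-binding peptide, at 14.71, 14.72 and 14.74 in TiPSC against 14.97 in TTF, followed by Eef1a1, Rpl41 and Tpt1, a translationally controlled protein, at 14.54, 14.53 and 14.56 against 14.76. Among regulatory, matrix and junction genes, those at 8 or more within 0.5 included Ccn2, Fbln1, Cnn3, Tead1, Ctnnb1, Smad2, Smad4, Tgfbr1, Cd9, Lamc1 and Tjp1, all described above, and most of the 12 close remodeller genes, such as Smarca4, Smarcc1, Smarcb1 and Hdac2. Closeness depended on the probe set. With all probe sets of a gene averaged, 762 genes at 8 or more lay within 0.5, against 1267. Of the 879 expressed genes within 0.5 that had several probe sets, 7 had another probe set 2 or more units away in all 3 arrays. For the lower genes, 198 of the 679 with several probe sets were lower on every one, and 1 had a probe set at least 1 unit higher. Averaging all probe sets of a gene turned no sign among the 240 named genes with a difference of 2 or more, but moved the size by over 1.5 times in 52. Among genes lower in TiPSC above, averaging gave −4.16 for Dcn, −2.76 for Tgfbr2, −2.76 for Tgfbr3, −4.09 for Nfix, −3.63 for Prrx1, −2.31 for Acta2, −2.72 for Anxa1, −3.14 for Osmr, −2.91 for Il1r1, −3.19 for Pdgfd and −3.49 for Fzd1. Among those higher it gave 4.15 for Mycn, 3.95 for Epcam, 3.15 for Kit, 2.72 for Orc1, 2.42 for Acvr2b, 2.23 for Fzd5 and 2.04 for Cbx7. It took Itgb3 (−1.58), Fabp4 (−1.89), Lama3 (1.51) and Tfrc (1.95) under a size of 2. At the edges of the rules, Pls3 was just inside the lower class, with its nearest array at −2.005 from TTF, and Traf3ip2 just outside, at −1.997. Gpn3 was just inside the higher class, at 2.01, and Pkp3 just outside, at 1.99. Rgl2 and Med31 were just inside and just outside the 0.5 window, both at 0.50.

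Whether genes of the source cell stayed above the level of embryonic stem cells was tested with limma, a linear model across all genes, on the 9 pluripotent arrays. TTF-high genes were those at least 2 log2 units higher in TTF than in the ViPSC mean, a choice that used neither TiPSC nor ESC arrays. Over all genes 115 of 18193 passed between TiPSC and ESC at an adjusted p under 0.05 (0.632%), 53 higher (0.291%) and 62 lower (0.341%) in TiPSC. Of 1284 TTF-high genes 9 were higher and 10 lower in TiPSC than in ESC. Their median difference was 0.09 and 85.4% lay within 0.5 of the ESC mean, against 91.8% of all genes. At an unadjusted limma p under 0.05 there were 320 of the 1284. The share of all genes at that unadjusted threshold was not counted, so nothing is read from this count or the like count below. Genes at least 2 log2 units lower in TTF than in the ViPSC mean differed from ESC more often. Of these 1077 genes 26 passed (2.41%, against 1.48% of TTF-high genes), and 386 had an unadjusted limma p under 0.05. Only 72.6% of the 1077 lay within 0.5 of the ESC mean. Departure from ESC was thus not particular to genes high in the source cell. The number of adjusted calls among TTF-high genes rested on single arrays. There were 0 higher and 2 lower without TiPSC 1, and 1 and 2 without TiPSC 2. There were 209 and 85 without ESC 1, 0 and 3 without ESC 2, and 4 higher without ESC 3. Nothing in the labels says that these arrays came from separate cultures, so the p-values measure only the spread among samples that may be technical.

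Those higher in TiPSC included matrix and contractile genes. Col5a2, a chain of type V collagen, was at 8.80, 8.28 and 8.27 in TiPSC and at 7.76, 7.32 and 7.57 in ESC, with TTF at 14.50 (TiPSC minus ESC 0.90 ± 0.16 SE, limma adjusted p = 0.0492). Myl9, the regulatory myosin light chain of smooth muscle, was at 8.40, 8.11 and 8.30, against 7.58, 6.85 and 6.73 in ESC and 11.96 in TTF (1.21 ± 0.20, limma adjusted p = 0.0396). Sulf1, which trims heparan sulfate, was at 8.10, 7.76 and 8.07, against 7.10, 7.03 and 7.10 in ESC and 10.53 in TTF (0.90 ± 0.10, limma adjusted p = 0.0115). In these genes all 3 TiPSC arrays lay above all 3 ESC arrays and below TTF. The ViPSC means, of cells from another source, were 7.93 for Col5a2 and 7.81 for Myl9. Both lay between the ESC means (7.55 and 7.05) and the TiPSC means (8.45 and 8.27), so part of the difference from ESC was shared. The endoplasmic reticulum stress gene Herpud1, with means of 9.21 in TiPSC and 7.71 in ESC, passed with the largest difference. Cthrc1 (1.05), a collagen triple helix protein, Sgce (1.03), a sarcoglycan, Eya1 (1.02), a phosphatase and coactivator, Tcf19 (0.84) and Uggt2 (0.53) passed too. Postn and Col1a2 did not pass. Postn was at 6.65 ± 0.45 in TiPSC and 5.92 ± 0.41 in ESC (SD, n = 3 each, limma adjusted p = 0.193), and Col1a2 at 10.24 ± 0.40 and 9.55 ± 0.33 (limma adjusted p = 0.153). Col1a2 was thus well above the bottom of the scale in ESC as well, which were grown on the same kind of feeders, and the part of feeder RNA in either was not tested.

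The genes lower in TiPSC than in ESC were led by 3 maternally expressed RNAs of the imprinted Dlk1-Dio3 cluster on chromosome 12. Rian was at 5.94, 5.72 and 5.20 in TiPSC, at 10.16, 8.49 and 8.99 in ESC and at 12.27 in TTF (TiPSC minus ESC −3.59 ± 0.36 SE, limma adjusted p = 0.00771). Meg3 (−2.72) and Mirg (−2.56) were lower with it. All 3 were lower in TiPSC than in both the source cell and ESC. Cdkn2a (−1.03 ± 0.14, limma adjusted p = 0.0220) and its repressor Bmi1 (−1.10 ± 0.19, limma adjusted p = 0.0461) were both below ESC, as they were below TTF. ViPSC were below ESC in Cdkn2a as well, with a mean of 7.80 against 8.52. Sparc was at 10.38, 10.32 and 10.22, against a mean of 11.09 in ESC (−0.78 ± 0.08, limma adjusted p = 0.00846). The mitochondrial pyruvate carrier gene Mpc1, Angptl4, Cacfd1 and Plpp3 completed the 10. The limma adjusted p of these 19 genes ranged from 0.000109 to 0.282 over the alternatives. Rian and Sparc were past the threshold in the most settings, 11 and 10 of 12, followed by Sulf1 and Mpc1 in 8. Myl9, Cthrc1, Meg3 and Bmi1 were past it in only 5 of 12, and Col5a2, Herpud1 and Sgce in 4. Uggt2 was past it in 2 of 11.

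**Figure D4:**
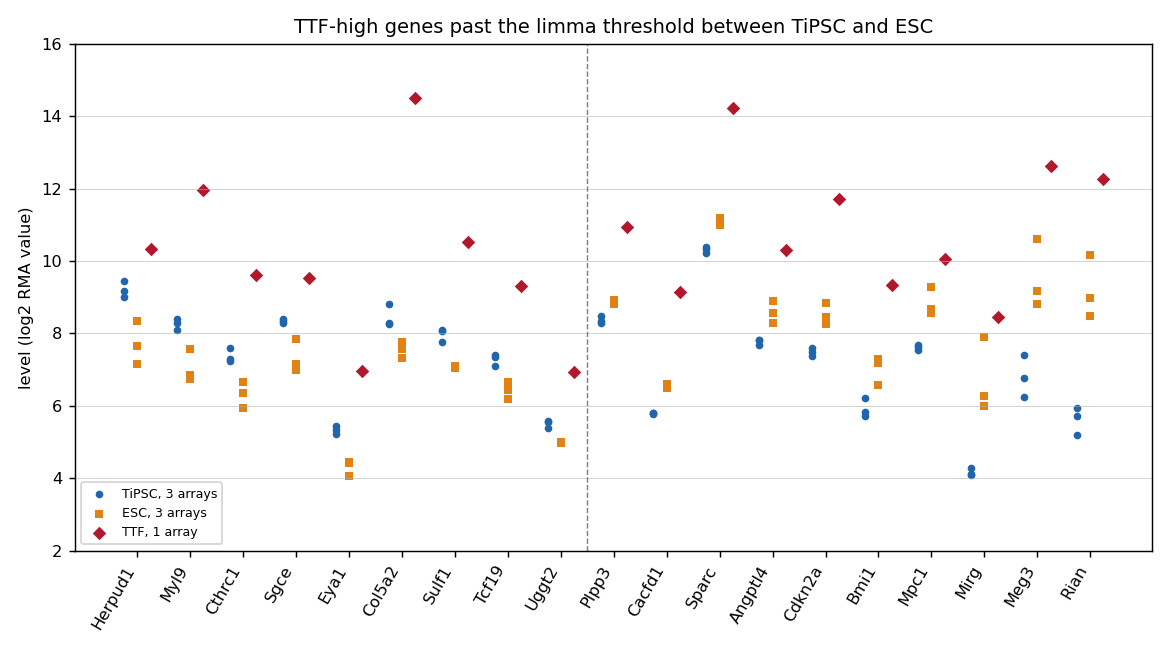
Levels, as log2 RMA values, of the 19 TTF-high genes that passed between TiPSC and ESC, with TiPSC (3 arrays), ESC (3 arrays) and TTF (1 array) from left to right for each gene. The 9 genes higher in TiPSC stand left of the dashed line and the 10 lower ones right of it, and the ESC arrays of Rian, Meg3 and Mirg lie between TiPSC and TTF.

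The change from myocytes to ViPSC shares no array with the change from TTF to TiPSC and was set beside it. There 1230 genes were lower in ViPSC than in VM (6.76%). Of them 424 were also lower in TiPSC than in TTF, which is 38.8% of the 1093 genes lower in TiPSC and 34.5% of the 1230. There were 11 genes lower in TiPSC and higher in ViPSC, and 13 the reverse. Both changes end in pluripotent cells, so such genes require TTF and VM to lie on opposite sides of that state. A low count was thus largely set by the design, and no conclusion is drawn from it. The fibroblast identity list had median differences of −4.18, −4.62 and −4.77 in the 3 TiPSC arrays against TTF, and of −2.16 and −2.13 in ViPSC 1 and 2 against VM, with ViPSC 3 slightly nearer to 0.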

How the data were processed

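RNA of 11 mouse samples was hybridised to Affymetrix mouse whole-genome arrays after oligo-dT primed amplification and biotin labelling, per the labels' protocols. The deposited values are log2 expression values that the authors made by RMA (background correction, quantile normalization and summary per probe set), per the submitters' processing notes, whose software version is not given in the sources used here. RMA gives no detection calls and no depth, so precision rests on how many arrays there are. Of 45101 probe sets, 34945 carried 1 gene symbol in GEO's platform annotation (34741 matched to RefSeq), 932 several, 9160 none and 64 were controls. Probe sets with 1 symbol gave 18193 genes, 9010 of them with more than 1 probe set, and the brightest over the 11 arrays was kept for each.

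Groups came from the sample labels. TiPSC against TTF was described by size, at 2 and 0.5 log2 units in all 3 TiPSC arrays. TiPSC against ESC was fitted with limma 3.58.1 in R 4.3.3 over the 9 pluripotent arrays, with Benjamini-Hochberg adjustment over all genes at 0.05. Tables and figures were made with Python 3.11.15, pandas 2.3.3, numpy 2.4.6 and matplotlib 3.10.9. Data for TiPSC against ESC were also simulated, with 200 of 18193 genes changed. There the fit recovered 26.9%, 94% and 100% of changes of 0.5, 1 and 2 log2 units, and 5.16% of calls were false. The simulated noise was independent and, for each gene, equal in all 9 arrays. In the real arrays the estimated weights, lower for noisier arrays, ran from 0.26 (ESC 1) to 2.03 (ViPSC 3). The simulated rates therefore cannot be carried over to the real calls. Named genes were the 15 largest differences each way, the first 6, 4 largest, 4 smallest and opposing members of each list, the 15 brightest genes within 0.5, list members within 0.5, genes called against ESC and genes at the thresholds. Some further list members were named after their values were seen. The members and gene lists were chosen with earlier results of these data known. Alternatives were other thresholds, windows, filters, scalings and probe set rules, array weights, a 6-array fit, a replicate block and each array left out.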

Additional observations from a re-analysis of the deposited data

Results flagged for a closer look

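Some results went one way in all 3 TiPSC arrays against TTF and the other way in all 3 ViPSC arrays against VM, and in each case the difference between the pairs was not tested. The median difference of the respiratory chain genes was 0.28 in TiPSC against TTF and −1.62 in ViPSC against VM. For the endothelial markers it was 0.52 and −4.47, and for the skeletal muscle markers 0.26 and −0.25. Both muscle medians were under 0.5 in size, and 6 of the 12 muscle genes lay within 0.5 in TiPSC against TTF, so no contrast is read from them. Ppbp, a platelet-type chemokine gene, had a difference of −7.59 in TiPSC against TTF and of 0.79 in ViPSC against VM. Probe sets outside the comparison of genes were counted by the same rule. Of the 9160 probe sets with no gene symbol, 105 were at least 2 log2 units lower and 93 at least 2 units higher in all 3 TiPSC arrays than in TTF. Both are smaller shares than the 6.01% and 4.51% of genes, each read by its brightest probe set.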

How the results depend on the processing

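The single TTF array and the bottom of the scale, where RMA compresses differences, limit the counts most, and without replicates of TTF its own spread is unknown. The 1093 lower genes became 2384 at a threshold of 1 log2 unit, 529 at 3 and 1862 probe sets with every probe set counted. The 820 higher genes became 2423 and 364 at those thresholds. The 8011 genes within 0.5 became 3935 with a window of 0.25, 1813 among genes at 7 or more in at least 1 array and 16557 probe sets with each counted. The 1267 of them at 8 or more became 505 with a window of 0.25, 2535 with a window of 1 and 762 with all probe sets of a gene averaged. With each TiPSC array left out, the counts were 1118 to 1181 lower, 842 to 928 higher, 8377 to 8636 within 0.5 and 1339 to 1452 of these at 8 or more. Centring on medians, on ribosomal protein genes or repeated quantile normalization kept these counts within 1.5 times. The list medians were less stable. Of 46, 29 moved by more than their SD over the 3 TiPSC arrays when probe sets were averaged. Among genes at 7 or more in at least 1 array 27 did so. Centring on ribosomal protein genes moved 29 in this way, with a shift of −0.13 in the median of all genes.

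The calls against ESC were less stable. The 9 TTF-high genes higher and 10 lower in TiPSC became 4 and 6 with probe sets averaged, 0 and 0 with the 6 TiPSC and ESC arrays alone, 224 and 71 with array weights, and 5 and 4 among TTF-high genes also above VM. With each array left out they ranged from 0 to 209 higher and from 2 to 85 lower. Over all genes, 115 calls became 3038 without ESC 1 and 12 without TiPSC 1, 19 without TiPSC 2, 17 without ESC 2, 57 without ESC 3, 65 with probe sets averaged, 2913 with array weights and 1 with 6 arrays. With the replicate number as a block, 0 were higher and 1 lower among TTF-high genes, and 9 were called over all genes. Samples with the same number did not deviate together more than others (r from −0.12 to 0.12, against −0.14 to 0.17 between different numbers). With 3 arrays per group this check is weak, and it cannot exclude that the numbers pair the samples. The cause of these changes was not tested.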
